A study of Mus musculus with 6 samples.

Results

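The heat shock chaperones described here are 10 mouse genes, Hspa1a, Hspa1b, Hspa8, Hsph1, Dnajb1, Hsp90aa1, Hspb1, Hspd1, Hspe1 and Bag3, out of 23284 genes in the expression table. They were chosen by gene name, as cytosolic and mitochondrial members of the heat shock family, by someone to whom their WT and KD values were already known, so the direction of those values is a description and was not tested. The RNA came from heart ventricles of C57BL/6 embryos at E9.5, made from C57BL/6 J-derived ES cells by tetraploid complementation so that the embryo proper is built from the injected ES cells. The WT group is 3 embryos from wild type ES cells. The KD group is 3 embryos whose ES cells carry, on both alleles, tandem polyadenylation signals in the second exon of Tbx5ua, the long non-coding RNA transcribed divergently from Tbx5 (genotype Tbx5ua -/-). The KD cells were clonal lines taken through drug selection and Cre treatment, and which line gave the embryos that were sequenced is not given in the sources used here. Each gene has 1 FPKM value for the WT group and 1 for the KD group, where FPKM is the number of fragments scaled by transcript length and by the number of mapped fragments. No value of a single embryo was used, so no SD can be given and no difference below could be held against the spread between embryos. Depth is also unknown.

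Heat shock proteins are molecular chaperones, which bind unfolded or partly folded proteins and help them to fold, to be held soluble or to be degraded. In the cytosol HSP70 proteins bind the client, J-domain proteins deliver it and start ATP hydrolysis, exchange factors such as HSP110 and BAG proteins release it, and HSP90 takes over selected clients. In mitochondria HSP60 and its lid HSP10 form a chamber in which imported proteins fold. Many of these genes are switched on by heat shock factor 1 binding to heat shock elements, while others are transcribed at a high level all the time. In heart muscle, chaperones are known for handling contractile proteins, which turn over under mechanical load.

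All 10 genes had a lower group value in KD than in WT ventricles. Of the 11606 genes with at least 1 FPKM in either group, 49.1% had a ratio below 1. The filter kept 9 of the 10 genes and left out Hspa1b. The ratios quoted from here on are log2 of KD over WT with 0.1 added to each FPKM, which understates the change of weakly expressed genes. Over the 10 genes their median was -0.33, where the median of all genes was 0.00 (0.0049 before rounding). Together the 10 genes made up 1.01% of summed FPKM in WT (8661 FPKM) and 0.863% in KD (7576 FPKM). In bulk tissue, fewer cells of a type and less RNA per cell cannot be told apart.

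**Figure D1:**
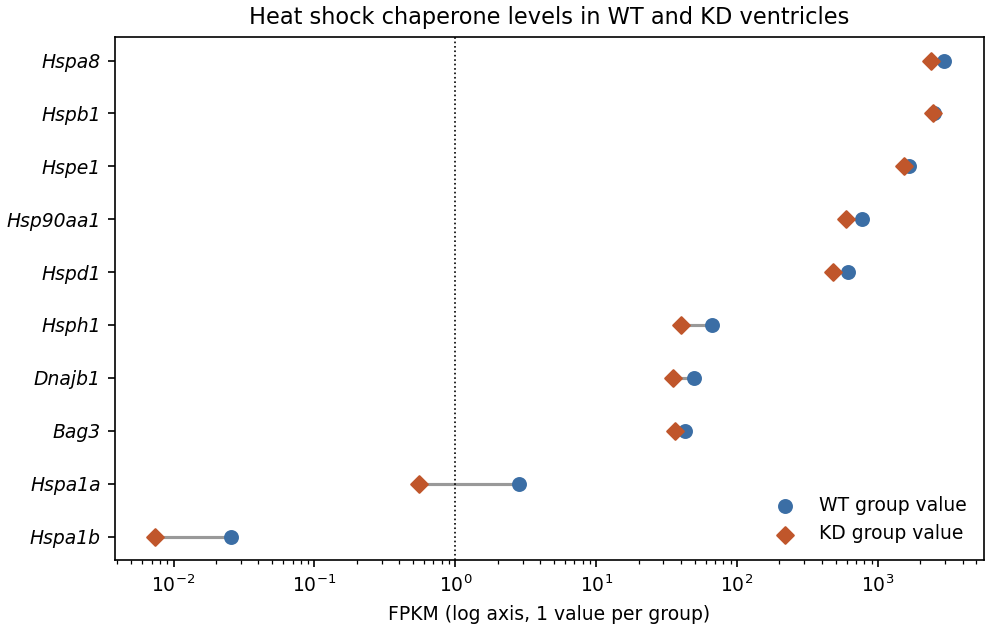
FPKM of each of the 10 chaperone genes in the WT group (circles) and the KD group (diamonds) on a log axis, with a dotted line at 1 FPKM and no error bars because each group has 1 value. The KD value lies left of the WT value for each gene, with a wide gap for Hspa1a and nearly no gap for Hspb1.

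The constitutive cytosolic HSP70 was the most abundant of the 10 in WT, and in KD it came after Hspb1. Hspa8, which encodes HSC70 and also uncoats clathrin vesicles, lies on chromosome 9 from 40801273 to 40805199 (build mm10, plus strand). Its level was 2955.55 FPKM in WT against 2380.46 in KD, ranking 34 and 58 among all genes. KD minus WT was -575 FPKM, the largest difference in FPKM among the 10 genes, which corresponded to 19.5% less RNA and a log2 ratio of -0.31. Of the 321 genes with at least 500 FPKM in either group, 3.43% had a lower ratio than Hspa8.

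The stress-inducible HSP70 genes had the lowest levels of the 10. Hspa1a and Hspa1b, which encode almost the same HSP70 protein and are strongly induced by heat, lie 12918 bp apart by their start sites on the minus strand of chromosome 17, at 34969359 to 34972156 and at 34956429 to 34959238. Hspa1a had 2.83 FPKM in WT against 0.553 in KD, a log2 ratio of -2.17, the lowest of the 10 genes. Without the added 0.1 this is 5.12-fold. Hspa1a reached 1 FPKM only in WT, so it passed the filter only through the group where it is higher. Hspa1b had 0.0255 FPKM in WT against 0.00735 in KD. Both of its values are close to 0, and its log2 ratio of -0.23, which enters the median over the 10 genes, is set mainly by the added 0.1. Hspa8 RNA exceeded Hspa1a RNA 1045-fold in WT and 4307-fold in KD on the FPKM scale. The Hspa1a and Hspa1b values are uncertain, because 66.3% of the 50-base words of the Hspa1a transcript and 62.3% of those of Hspa1b occur in transcripts of other genes, mainly in each other.

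The HSP70 partners were lower in KD to differing degrees. Hsph1 encodes HSP110, which acts as a nucleotide exchange factor for HSP70 and helps to dissolve aggregates, and lies on chromosome 5 from 149616845 to 149636315 (minus strand). It had 66.0 FPKM in WT against 39.96 in KD, a log2 ratio of -0.72, or 39.5% less RNA. Dnajb1, the HSP40 J-domain protein that delivers clients to HSP70, lies on chromosome 8 from 83608175 to 83611903 (plus strand). Its group values were 49.2 FPKM in WT against 35.2 in KD, a log2 ratio of -0.48. Bag3, whose protein links HSP70 to small heat shock proteins and to autophagy of damaged filamin at the Z-disc, lies on chromosome 7 from 128523583 to 128546979 (plus strand). It had 42.6 FPKM in WT against 36.2 in KD, a log2 ratio of -0.24. The level of Hspa8 relative to Hsph1 was 44.8 in WT and 59.6 in KD, while relative to Bag3 it was 69.4 and 65.8, so Hsph1 was further below WT than Hspa8 was, and Bag3 less far.

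The inducible cytosolic HSP90, Hsp90aa1, lies on chromosome 12 from 110691036 to 110696395 (minus strand). HSP90 holds kinases, hormone receptors and, in muscle, myosin heads in a form that can mature. Hsp90aa1 had 771 FPKM in WT against 597 in KD, a log2 ratio of -0.37 and 22.6% less RNA. Its constitutive paralogue Hsp90ab1 had 1214 FPKM in WT against 1087 in KD, a log2 ratio of -0.16. The level of Hsp90ab1 relative to Hsp90aa1 was thus 1.57 in WT and 1.82 in KD.

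The mitochondrial pair shares a promoter region. Hspd1, encoding HSP60, lies on chromosome 1 from 55077834 to 55087932 on the minus strand, and Hspe1, encoding its co-chaperonin HSP10, from 55088148 to 55091317 on the plus strand, with start sites 216 bp apart and facing away from each other. Hspd1 had 611 FPKM in WT against 478 in KD, a log2 ratio of -0.35. Hspe1 had 1673 FPKM in WT against 1541 in KD, a log2 ratio of -0.12. Although they are transcribed from the same region, Hspd1 was 21.8% lower and Hspe1 7.87% lower, so that Hspe1 RNA was 2.74 times Hspd1 RNA in WT and 3.22 times in KD. Hspa9, the mitochondrial HSP70 that pulls proteins through the inner membrane, had 203 FPKM in WT against 182 in KD, a log2 ratio of -0.16.

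Hspb1 hardly differed between the groups. It encodes HSP27, a small heat shock protein that holds unfolded proteins without ATP and binds the actin cytoskeleton, and lies on chromosome 5 from 135887919 to 135889563 (plus strand). Its level was 2489 FPKM in WT against 2468 in KD, 0.842% less, with a log2 ratio of -0.01. In rank it was 50 in WT and 55 in KD, so that Hspa8, which ranked above it in WT, ranked below it in KD.

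The size of these differences is set here against other genes, since no values of single embryos were used. At a fold of 1.5 or more, 2 of the 9 genes that passed the filter were lower in KD, Hspa1a and Hsph1, while 3.10% of all genes were. Hspa1a had to be lower to be counted here, since its KD value is under the filter, and of the 8 genes with at least 1 FPKM in both groups 1 was lower at this fold. At that fold 0 of 9 were higher, against 4.48% of all genes, a share that was 1.48% among genes with at least 50 FPKM and 8.09% with no minimum. At a second threshold, a KD value at least 20% below or 25% above WT, 5 of 9 were lower, Hspa1a, Hsph1, Dnajb1, Hsp90aa1 and Hspd1, against 9.34% of all genes, and without Hspa1a 4 of 8. On the higher side the count was 0 of 9, against 12.1% of all genes. Just inside the 20% threshold was Hspd1 (21.8% lower) and just outside it Hspa8 (19.5% lower). Because these genes were picked with their values known, the counts describe them and support nothing beyond that.

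Abundant genes were compared separately, because their ratios spread less. With at least 50 FPKM in either group there were 2100 genes, of which 48.9% had a ratio below 1 and 3.05% were lower by at least 20%. Of the 10 chaperone genes 6 were in this class, all 6 had a ratio below 1, and 3, Hsph1, Hsp90aa1 and Hspd1, were lower by at least 20%. Hsph1 reached 50 FPKM only in WT (66.0 against 39.96 in KD). It therefore had to be lower to be counted in this class. With at least 500 FPKM, a level added after the values had been seen, 29.3% of genes had a ratio below 1 and 3.43% were lower by at least 20%. Here the chaperone genes were Hspa8, Hspb1, Hspe1, Hsp90aa1 and Hspd1, all 5 below 1 and 2, Hsp90aa1 and Hspd1, lower by at least 20%. Hspd1 reached 500 FPKM only in WT (611 against 478 in KD), so its ratio had to be below 1 for it to be counted here. Genes were also divided by mean FPKM, and 6 chaperone genes lay below the central 90% of genes in their own class: Hspa1a, Hsph1, Dnajb1, Hsp90aa1, Hspd1 and Hspa8. Without Hspa1a, which passed the filter only through WT, these were 5 of 8. Bag3, Hspe1 and Hspb1 lay inside it.

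**Figure D2:**
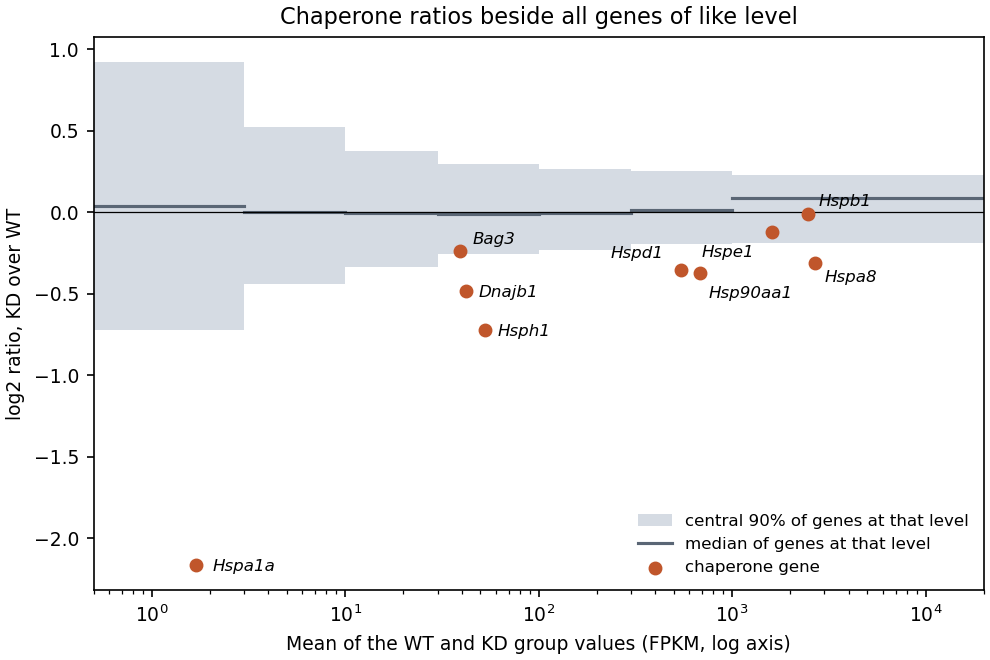
The log2 ratio of KD over WT (vertical axis) against the mean of both group values in FPKM (log axis) for the 9 chaperone genes with at least 1 FPKM, over the central 90% (shaded) and median (line) of all genes in 7 classes of level. The shaded range narrows from -0.72 to 0.92 in the lowest class to -0.19 to 0.23 in the highest, and Hspa1a, Hsph1, Dnajb1, Hsp90aa1, Hspd1 and Hspa8 lie below it, of which Hspa1a reached 1 FPKM only in WT.

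Several of these genes have processed pseudogenes or close copies, and how reads that fit more than 1 place were counted is not given in the sources used here. In 7 of the 10 genes over 40% of the 50-base words of the longest coding transcript occur in annotated transcripts of other genes, with the highest share for Hspa8 (74.8%), followed by Hspa1a, Hspa1b, Hsp90aa1 (58.5%), Hspb1 (51.6%), Hspd1 (44.8%) and Hspe1 (44.8%). In the other 3 genes the share was under 1%, with 0 for Hsph1 and Bag3 and 0.441% for Dnajb1. These 3 genes had log2 ratios of -0.72, -0.24 and -0.48 in that order. The part of read assignment in these values was not tested.

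The promoter sequences are shown because heat shock elements are the feature through which this family is known to be induced. They come from RefSeq (build GRCm38.p6, the same assembly as mm10), and windows of 300 bases, from 250 before the start of transcription to 49 after it, were matched for 8 of the 10 genes, not for Hspa8 and Hsp90aa1. All 8 start sites equalled those of the expression table. A heat shock element is a run of short units in alternating orientation. The letters searched were the 2-unit forms GAANNTTC and TTCNNGAA, each of which reads alike on both strands, and the 3-unit forms made by adding NNGAA to the first or NNTTC to the second, which contain the 2-unit forms. The bases before the start site are printed below for 4 genes, with element letters in capitals. Hspa1a stands for the inducible HSP70 genes at chr17:34972157-34972406 (minus strand), Hspe1 for the divergent mitochondrial promoter at chr1:55087898-55088147 (plus strand), Hspb1 for the gene that hardly differed at chr5:135887669-135887918 (plus strand), and Hsph1 for the gene with the lowest log2 ratio among those of the 10 with at least 1 FPKM in both groups at chr5:149636316-149636565 (minus strand).
Hspa1a: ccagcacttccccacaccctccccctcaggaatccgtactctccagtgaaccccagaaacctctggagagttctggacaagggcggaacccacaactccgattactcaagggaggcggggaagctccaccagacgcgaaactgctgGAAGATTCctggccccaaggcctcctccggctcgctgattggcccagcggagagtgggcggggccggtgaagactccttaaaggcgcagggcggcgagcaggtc
Hspe1: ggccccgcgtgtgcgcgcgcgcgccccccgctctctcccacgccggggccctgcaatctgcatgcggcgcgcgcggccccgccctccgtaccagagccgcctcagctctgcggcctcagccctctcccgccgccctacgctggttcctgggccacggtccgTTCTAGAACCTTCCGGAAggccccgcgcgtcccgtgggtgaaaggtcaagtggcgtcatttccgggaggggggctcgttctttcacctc
Hspb1: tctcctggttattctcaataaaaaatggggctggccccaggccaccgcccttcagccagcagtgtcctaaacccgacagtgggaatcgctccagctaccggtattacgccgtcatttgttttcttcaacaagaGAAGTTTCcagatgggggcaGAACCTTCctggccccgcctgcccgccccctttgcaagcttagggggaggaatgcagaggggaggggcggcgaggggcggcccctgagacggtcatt
Hsph1: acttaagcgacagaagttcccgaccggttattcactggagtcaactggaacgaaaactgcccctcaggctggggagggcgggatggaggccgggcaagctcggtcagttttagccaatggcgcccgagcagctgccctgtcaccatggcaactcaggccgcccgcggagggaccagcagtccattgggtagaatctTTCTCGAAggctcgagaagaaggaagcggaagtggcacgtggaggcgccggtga

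Hsph1 also holds a 3-unit element just after its start site, at chr5:149636284-149636304 (minus strand), shown here with 4 flanking bases on each side.
Hsph1 element: cagaTTCTGGAAAGTTCtcct

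The 3-unit element was found in the windows of Hsph1, Hspd1 and Hspe1, 3 of 8, while 0.550% of 13641 promoters held it. The Hspd1 and Hspe1 windows overlap by 285 bases, so theirs is 1 and the same stretch, in which 2 such elements overlap, at positions -89 to -72 from the Hspe1 start and -144 to -127 from the Hspd1 start. GAANNTTC was found in 7 of 8 windows, against 7.30% of promoters, and TTCNNGAA in 3 of 8, against 7.98%. For genes with at least 1 FPKM, 5.63% and 6.55% of promoters held these letters. The 8 windows are not separate sequences, since those of Hspd1 and Hspe1 overlap and those of Hspa1a and Hspa1b are nearly the same. Hspa1a and Hspa1b had the same single GAANNTTC, at positions -104 to -97 from the start, and their windows were identical at 296 of 300 positions. Bag3 had GAANNTTC 42 bases after its start, Hspb1 had it at a pair of places, and Dnajb1 had none of these letters in its window. TATAAA, the TATA box letters, was searched on both strands and found in 0 of 8 windows, against 13.3% of promoters. Among promoters of genes with at least 1 FPKM that share was 6.74%. Among the 34 genes with at least 1 FPKM whose promoter held a 3-unit element, the median log2 ratio was -0.08 and 20.6% were lower by at least 20%, against a median of 0.00 (0.0023) and 8.36% for the other genes with a matched window. The 34 include Hsph1, Hspd1 and Hspe1, which were chosen with their values known, and without them 5 of 31 genes (16.1%) were lower by at least 20%, with a median of -0.06. For GAANNTTC, the form held by 7 of the 8 windows, the share was 8.91% of 404 genes with it, 8.29% of 398 when the chaperone genes were left out, and 8.39% of genes without it. For TTCNNGAA it was 7.45% of 470 genes, 7.07% of 467 without the chaperone genes, and 8.48% of genes that lack it. A match of letters is a description of the sequence and not a site of binding.

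**Figure D3:**
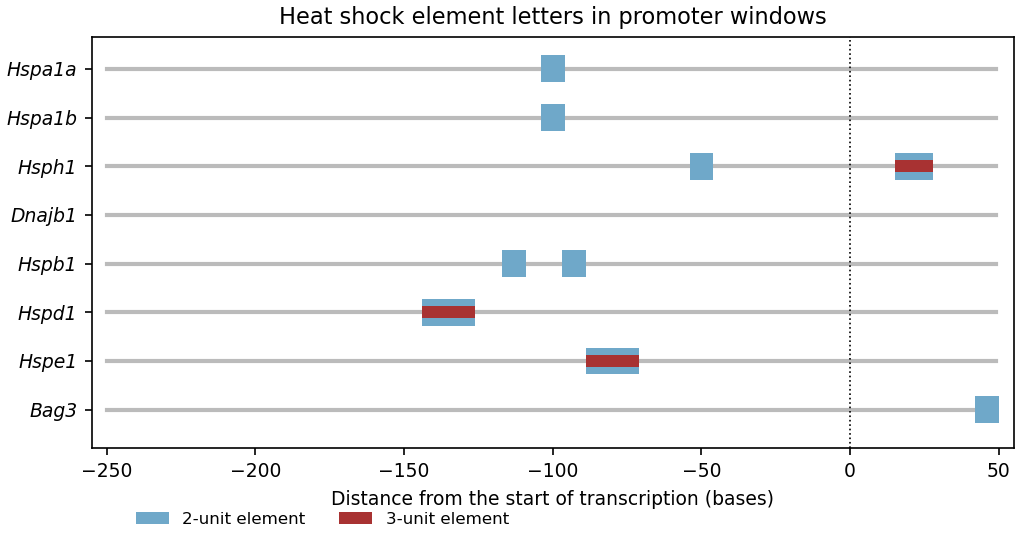
Positions of 2-unit and 3-unit heat shock element letters, in bases from the start of transcription (dotted line), in the windows of 8 chaperone genes. The 3-unit elements lie in Hsph1, Hspd1 and Hspe1, and the Dnajb1 window holds none.

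Other genes of the chaperone system were read from lists composed from textbook membership. Of 74 genes with at least 1 FPKM in 7 lists of cytosolic and mitochondrial chaperones and co-chaperones, 51 (68.9%) had a ratio below 1, with a median of -0.11, where 49.1% of all genes had a ratio below 1. Of the 74, 6 (8.11%) were lower by at least 20%, against 9.34% of all genes, and 2 (2.70%) were higher by at least 25%, against 12.1%. These shares are not compared at like level, since many list genes are abundant and ratios of abundant genes spread less. With at least 50 FPKM, 3.05% of genes were lower by at least 20%. One of the 6, Hspa12a, with 1.31 FPKM in WT against 0.979 in KD, passed the filter only through WT, and is named here after its values were seen. Differences in these lists were thus mostly smaller than those of Hsph1, Dnajb1, Hsp90aa1 and Hspd1. The lists do not hold the 10 genes, and genes within them are not independent replicates.

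Among the 10 lists of related genes, those of further HSP70 and HSP110 genes and of HSP90 with its co-chaperones had the lowest medians. In the list of further cytosolic HSP70 and HSP110 genes 6 of 7 had a ratio below 1, with a median of -0.27. Of these Hspa2, a testis-enriched HSP70, was past 1.5-fold, with 14.8 FPKM in WT against 9.51 in KD, a log2 ratio of -0.63. Hspa14 had the highest level in this list, 73.8 FPKM in WT against 66.2 in KD. Hspa1l, whose start site is 547 bp from that of Hspa1a, had 1.88 FPKM in WT against 1.93 in KD. Both values lie near the filter of 1 FPKM, and the gene was named after they were seen. Any relation to the Hspa1a values was not tested. In the list of HSP90 and its co-chaperones 13 of 16 had a ratio below 1, with a median of -0.18 and 0 genes past 1.5-fold. In the list of cytosolic J-domain proteins 8 of 11 were below 1, with a median of -0.14 and Dnajc8 the highest at 143 FPKM in WT against 141 in KD. Of the HSP70 co-chaperones 5 of 8 were below 1, with a median of -0.09, which was -0.05 over those with at least 5 FPKM. Among them Stub1, the ubiquitin ligase CHIP, had 207 FPKM in WT against 200.1 in KD.

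The chaperonin TRiC, which folds actin and tubulin, and its partner prefoldin had 11 of 13 genes with a ratio below 1 and a median of -0.11. The log2 ratios ranged from -0.24 to 0.16, and Cct5 had the highest level, 527 FPKM in WT against 482 in KD. Mitochondrial chaperones and proteases had 6 of 13 genes below 1 and a median of 0.00 (0.0015), with Pam16 the highest at 216 FPKM in WT against 226 in KD. Their log2 ratios ranged from -0.27 to 0.58. The top of this range was the protease gene Lonp1, with 17.2 FPKM in WT against 25.7 in KD, named here after its values were seen. Small heat shock proteins had 2 of 6 genes below 1 and a median of 0.10, which was 0.02 with no minimum level. Cryab, encoding alpha-B crystallin, had 699.6 FPKM in WT against 641 in KD, and Hspb6, encoding HSP20, was past 1.5-fold on the higher side, with 2.01 FPKM in WT against 3.53 in KD. Among the partners of BAG3 3 of 6 genes were below 1, with a median of -0.02, and Flnc, the muscle filamin that BAG3 helps to clear, was past 1.5-fold with 20.7 FPKM in WT against 13.8 in KD.

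The regulators differed little. Hsf1, the factor that drives the heat shock response, had 30.3 FPKM in WT against 27.6 in KD, a log2 ratio of -0.13, and Hsf2 had 14.9 and 13.5 FPKM, a log2 ratio of -0.14. In the list of heat shock factors 2 of 3 genes with at least 1 FPKM had a ratio below 1. The median was -0.13, and it was -0.04 with no minimum level. The highest gene of this list was Hsbp1, a small protein that binds heat shock factor 1, at 158 FPKM in WT against 169 in KD. In the endoplasmic reticulum, the chaperones had 9 of 12 genes below 1 and a median of -0.04. Hspa5, the HSP70 of that compartment, had 403 FPKM in both groups, and its HSP90, Hsp90b1, had 330 FPKM in WT against 298 in KD.

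**Figure D4:**
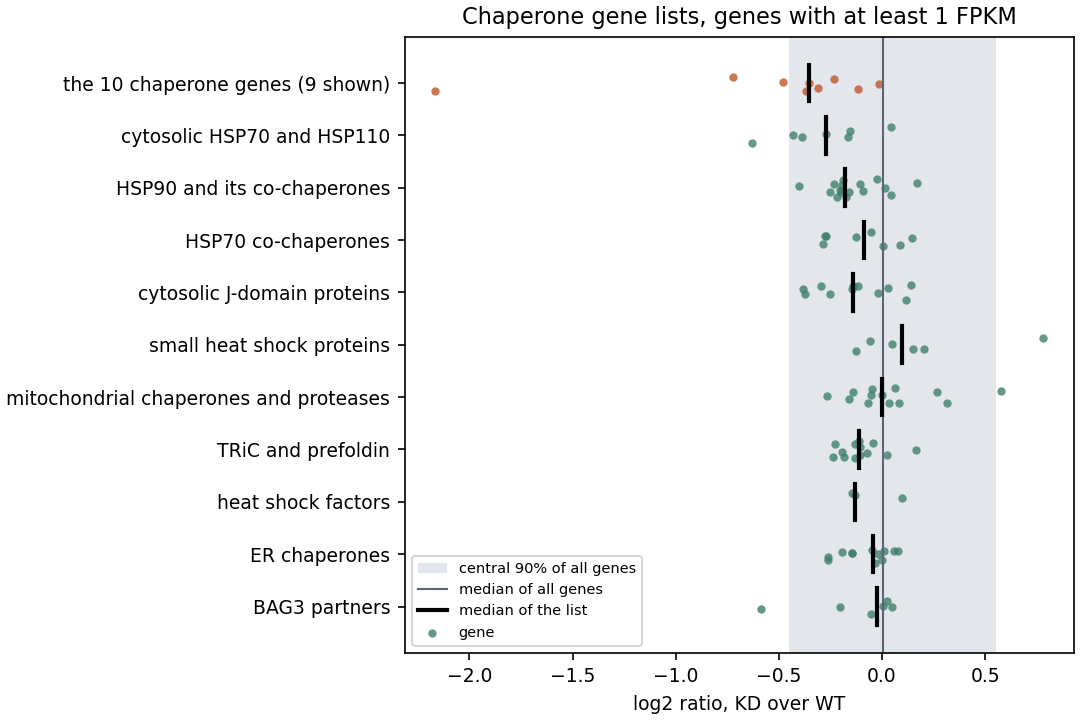
The log2 ratio of KD over WT for the 9 chaperone genes with at least 1 FPKM (orange, median -0.35) and for genes at that level in 10 lists of related genes (green), 1 point a gene, with the median of each list (black bar), the median of all genes (vertical line) and the central 90% of all genes (shaded, -0.45 to 0.55). The 9 chaperone genes, the further HSP70 genes and the HSP90 list lie to the left, while small heat shock proteins and mitochondrial genes lie around or right of the median.

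The labelled tissue and other cell types were checked by their markers. Of 8 cardiomyocyte markers 8 had at least 1 FPKM, with a summed level of 30581.5 FPKM in WT against 31527.5 in KD and a median log2 ratio of -0.03, and Myl7 was the highest at 13643 and 12907 FPKM. Endocardial markers summed to 140 FPKM in WT against 152 in KD (7 genes, median 0.04, highest Emcn with 43.1 and 57.4 FPKM). Primitive erythroid markers summed to 11441 and 11522 FPKM (6 genes, median 0.20 but 0.11 over those with at least 5 FPKM). Hba-x was the highest of these in WT, with 4401 and 4318 FPKM, while in KD Hbb-y was higher with 4453 FPKM. Epicardial markers were higher in KD, with a sum of 47.0 FPKM in WT against 95.9 in KD, a median of 1.01 and 5 of 6 past 1.5-fold, namely Tbx18, Upk1b, Upk3b, Tcf21 and Aldh1a2. Of these Aldh1a2, with 0.872 FPKM in WT against 1.74 in KD, passed the filter only through KD. The remaining epicardial gene, Wt1, was the highest in WT with 13.8 FPKM and had 19.2 FPKM in KD. In the atrial list Nr2f1, Nr2f2 and Vsnl1 were past 1.5-fold higher (median 0.85 over 5 genes but 0.02 over those with at least 5 FPKM, sums 6091 and 5909 FPKM, highest Myl4 with 6082 and 5896 FPKM), and 1 marker, Sln, was listed at 0 in both groups. Nr2f1 (0.552 and 1.07 FPKM) and Vsnl1 (0.555 and 1.14 FPKM) passed the filter only through KD, so they could be counted only as higher. None of 4 macrophage markers reached 1 FPKM, with sums of 0.530 and 0.275 FPKM and Csf1r the highest at 0.363 and 0.240 FPKM. Immediate early genes, which respond to handling as well as to signals, had a median of 0.17 over 7 genes, sums of 211 and 227 FPKM, and Ier2 as the highest with 103 and 106 FPKM. In this list Egr1 was past 1.5-fold higher (8.41 and 15.9 FPKM) and Atf3 past 1.5-fold lower (14.5 and 8.09 FPKM). The part of cell type shares and of handling in the chaperone values was not tested.

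Over the whole table, the FPKM total was 859452 for WT and 877889 for KD, and 2 genes, Actc1 and Rn45s, had too many reads to be measured. Tbx5ua is not analysed here, so the knockdown itself was not checked in these libraries.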

How the data were processed

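Ventricles of 3 WT and 3 KD embryos at E9.5 were sequenced as Smart-Seq2 libraries, made from 10 ng of RNA with 12 cycles of preamplification and 9 of enrichment. Such cDNA amplification can add noise to weakly expressed genes. The submitters' processing notes name TopHat, Bowtie2, Cuffdiff and the build mm10. Versions are not given in the sources used here. The authors deposited 1 table from Cuffdiff with 1 FPKM value per gene for each group, KD being named KO there. It also holds the authors' own comparison (fold change, test statistic, p-value and q-value), which was not used. There were 0 columns of single samples.

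The log2 ratio of KD over WT was computed with a pseudocount of 0.1. Genes with at least 1 FPKM in either group were kept, and a ratio of at least 1.5-fold, or a value at least 20% lower or 25% higher, was counted. With 1 value a group no test was made, and no p-value or interval is given. Table starts were converted to count from 1, and all 10 loci overlap the gene of that name in GENCODE release M21. Words of 50 bases, on both strands, were compared over that release's transcripts. Promoter windows were used where their start site lay within 100 bases of that of the table.

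The 10 genes, the lists and the thresholds were chosen with earlier results of these data known. Named genes are the 10 genes, Hsp90ab1, Hspa9, Hspa5, Hsp90b1, Hsf1 and Hsf2, and in each list the genes past 1.5-fold and the highest in WT. Hspa1l was named after its value was seen, because it neighbours Hspa1a. Alternatives were pseudocounts of 0 and 1, a threshold of 20% lower or 25% higher, a fold of 2, other minimum levels, subtraction of the median and rescaling to the same sum. The scripts were tested on simulated data. Python 3.11.15, NumPy 2.4.6, pandas 2.3.3 and Matplotlib 3.10.9 were used.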

Additional observations from a re-analysis of the deposited data

How the results depend on the processing

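No paired analysis was possible because each group is represented by 1 pooled number. Leaving out an embryo could therefore not be run. The 10 genes had a lower value in KD under each pseudocount and scaling tried, but these settings could not have turned the direction. The same pseudocount is added to both groups, and both scalings moved the ratios further down. The number of genes lower past the fold was 2 at 1.5-fold, 5 at the threshold of 20% lower and 1 at 2-fold, a change by construction, and it was 2 under both other pseudocounts and both scalings. The number higher past the fold was 0 under each of these settings. Each count of lower genes included Hspa1a, which passed the filter only through WT and was the 1 gene counted at 2-fold. The median log2 ratio of the 10 genes, -0.33, was -0.36 with a pseudocount of 0, -0.34 less the median over all genes and -0.36 with both groups rescaled to the same sum. It was -0.33 with a pseudocount of 1 and without Hspa1a and Hspa1b. With no values of single embryos, any change in the second decimal was counted as a move. Hspa1b and Hspa1a depended most on the pseudocount. For Hspa1b the log2 ratio was -1.79 at 0, -0.23 at 0.1 and -0.03 at 1, and for Hspa1a it was -2.36, -2.17 and -1.30. The share of all genes lower by 1.5-fold or more was 3.10%, and it was 5.86% with no minimum and 1.41%, 1.67% and 2.18% with at least 5, 50 and 500 FPKM. The share higher was 4.48%, and under the same settings 8.09%, 2.09%, 1.48% and 1.87%. Of the list medians, 5 moved by over 1.5 times. The atrial median of 0.85 was 0.46 with no minimum, 0.02 over genes with at least 5 FPKM and 0.42 with a pseudocount of 1. That of small heat shock proteins, 0.10, was 0.02 with no minimum and 0.05 with at least 5 FPKM, and that of heat shock factors, -0.13, was -0.04 with no minimum. With at least 5 FPKM, HSP70 co-chaperones moved from -0.09 to -0.05 and erythroid markers from 0.20 to 0.11. The promoter shares without the 10 genes were also added after seeing the data. No other gene of the table overlaps the locus of any of the 10, so leaving out shared loci removed none. The level of at least 500 FPKM was chosen after seeing the data. How far counting error reaches at the low levels of Hspa1a and Hspa1b is unknown.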
